A study of Rattus norvegicus with 4 samples.

Results

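The probes described here are the minor arm, or star, probes of a rat miRNA array. They were chosen by name: every miRNA probe whose name ended in an asterisk was taken, except miR-30e*, miR-143*, miR-145*, miR-200b*, miR-126* and miR-320*. This gave 235 of the 679 miRNA probes. For 199 of the 235 the array also carried the probe of the same name without the asterisk, called the other arm here, and for 36 it did not. The tissue was prostate of TRAP rats, a line known to develop prostate cancer because its transgene drives the SV40 T antigen from the prostate-specific probasin promoter. All groups carried it, and all animals were males, 6 weeks old at the start and kept on a control diet. For 8 weeks they were given either saline or the histone deacetylase inhibitor OBP-801 into a vein, 2 times in each week. The dose reads 1 mg/kg in one label and 1 mg without a body weight in another. RNA of the ventral and of the lateral lobe was measured for each agent, which made 4 groups of 1 array, and the number of rats behind an array is not stated. Values are listed throughout in the order ventral saline, ventral OBP-801, then saline and OBP-801 in the lateral lobe.

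A miRNA gene is transcribed as a hairpin, and the enzymes Drosha and Dicer cut from it a short duplex of the hairpin's left (5p) and right (3p) arms. An Argonaute protein keeps 1 arm, usually the one whose 5′ end is less tightly paired or begins with U, and the rest is usually degraded. The asterisk was the older mark for the arm thought to be rarer when the hairpin was first described. For some hairpins later sequencing found the starred arm to be the commoner one, and names ending in -5p and -3p took the mark's place. Bases 2 to 8 of the kept arm, the seed, pair with target messenger RNAs, so that the arms of a hairpin usually have different targets.

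Sequences of mature arms were taken from RefSeq's annotation of the rat assembly GRCr8, in which 186 of the 235 star arms and both arms of 151 hairpins were found. The first set below holds the star arms with the brightest probes among those 186, which leaves out the brightest of all, miR-328a*. It is followed by the pair of star arms whose probes differed most between OBP-801 and saline. The seed is in capitals.
miR-92b*: aGGGACGGgacgcggugcaguguu
miR-211*: gGCAAGGAcagcaaaggggg
miR-326*: gGGGGCAGggccuuugugaa
miR-204*: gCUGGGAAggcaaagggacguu
miR-296*: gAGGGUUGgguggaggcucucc
miR-375*: gCGACGAGccccucgcacaaacc
miR-652*: aCAACCCUaggagggggugccau
miR-140*: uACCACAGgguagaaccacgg
The other arms of miR-204 and miR-211 are shown next because they share a seed while the star arms of the same hairpins do not.
miR-204: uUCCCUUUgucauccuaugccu
miR-211: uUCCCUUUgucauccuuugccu
On GRCr8, miR-92b* lies at chr2:176931702-176931725 on the minus strand, miR-211* at chr1:127189389-127189408 on the plus strand and miR-326* at chr1:163266184-163266203 on the plus strand. The star arm of miR-204 lies at chr1:229743532-229743553 on the plus strand, that of miR-296 at chr3:183470079-183470100 on the minus strand and that of miR-375 at chr9:83906625-83906647 on the minus strand. The remaining pair are miR-652* at chrX:111140088-111140110 and miR-140* at chr19:52375353-52375373, both on the plus strand.

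A probe counted as detected when its spot exceeded the blank spots' mean on that array by more than 2 SD, which put the limit at 124, 116, 125 and 129 signal units. Signal here is the median brightness of a spot in arbitrary units, before any correction. Over all 679 miRNA probes, 299, 290, 290 and 329 were detected. The 6 miRNAs taken as markers of epithelium were detected on all 4 arrays, and miR-122, taken as the marker of liver, was detected on none. The scanner files' names place both saline arrays at the first position of a slide and both OBP-801 arrays at the second, with 1 slide for each lobe, so that agent and position, and lobe and slide, cannot be told apart. Summed signals of the epithelial markers were 43124, 35694, 58756 and 76256, and those of the pair of smooth muscle miRNAs were 5550, 6414, 8321 and 15462. The endothelial marker read 1029, 1392, 1381 and 2258, and the 4 leukocyte miRNAs summed to 1163, 962, 812 and 830. Of these, all but the leukocyte sum were highest in lateral OBP-801, the array with the highest median signal. The striated muscle miRNAs summed to 439, 364, 629 and 628 and the neuronal ones to 416, 358, 375 and 405. The erythroid ones summed to 365, 333, 400 and 553. Among the latter sets only the erythroid sum was highest in lateral OBP-801. Of these sets, 1 of 3 striated muscle, 1 of 2 neuronal and 1 of 2 erythroid miRNAs were detected on all 4 arrays. The other erythroid miRNA was detected on none. All sums are of uncorrected signal, and blank spots alone averaged 102, 100, 104 and 109 units, so these sums hold much background. The part of these cell types in the differences below was not tested. In these tissue samples fewer cells of a type and less RNA per cell cannot be told apart.

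Most star probes did not pass this limit. Of the 235, 75 (31.9%), 70 (29.8%), 74 (31.5%) and 87 (37.0%) were detected, while of the 199 other arms 116 (58.3%), 114 (57.3%), 111 (55.8%) and 118 (59.3%) were. No test was made of the difference between these shares. Over the arrays, 130 star probes were detected on none, 24 on 1, 14 on 2, 14 on 3 and 53 on all 4. Of the 24 seen once, 7, 2, 5 and 10 were seen on the respective arrays. Among the other arms 67 of 199 were detected on no array and 100 on all 4.

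The star probes were mostly dim. The median signal of the 235 was 113, 104, 116 and 121, below the limit on every array, and only 12, 13, 14 and 15 of them were brighter than 2 times the limit. Exactly 5 star probes passed 1000 units on each array, against 25, 20, 26 and 27 of the 199 other arms. Around the limit the values were close together: the 3 members just under it lay between 123.4 and 123.9 in ventral saline and the 3 just over it between 124.8 and 125.1. In lateral OBP-801 the 3 under it lay between 128.6 and 128.7 and the 3 over it between 129.2 and 129.6. A call of detected or not for such probes therefore rests on less than 2 units of signal.

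The brightest star probe by mean level was miR-328a* (MIMAT0017029 in the array's annotation), with signals of 4268, 5431, 4501 and 6750. The next was miR-92b* (MIMAT0017319), from a hairpin related to the growth-promoting miR-17-92 cluster, with 3296, 4365, 4129 and 7086. By spot signal, before normalization, both were brightest in lateral OBP-801 and dimmest in ventral saline. The probe of miR-211* followed with 2594, 3196, 2263 and 3621. That of miR-326*, whose gene lies in an intron of the beta-arrestin gene Arrb1, read 2063, 2555, 2248 and 3291. The last above 1000 units was miR-204* (MIMAT0004739), with 1179, 1362, 1612 and 1703. In mammals miR-204 and miR-211 are related miRNAs whose genes lie in introns of the channel genes Trpm3 and Trpm1.

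A second tier lay between 299 and 822 units. It held miR-375*, whose other arm is known from pancreatic islets and is raised in human prostate cancer, with 697, 756, 675 and 761. It also held miR-296* with 581, 601, 508 and 822 and miR-92a-2*, from a copy of the miR-17-92 cluster on the X chromosome, with 502, 541, 445 and 697. The spot signals of miR-296* and miR-92a-2* had the same order over the arrays, highest in lateral OBP-801 and lowest in lateral saline. After quantile normalization, which gives probes of equal rank the same value, the log2 difference between lateral and ventral OBP-801 was 0 for both. Under 7 other ways of background correction and scaling, it was taken relative to the median of all miRNAs. It then lay between -0.03 and 0.18 for miR-296* and between -0.07 and 0.07 for miR-92a-2*. The remaining 4 of the 12 brightest were miR-128-2*, miR-652*, miR-140* and miR-365*, between 299 and 617 units. Before any normalization, 11 of these 12 read higher under OBP-801 than under saline in both lobes (33.1% of all 242 miRNAs detected on all 4 arrays did), and miR-140* was the exception. After normalization it was 8 of the 12 (30.2% of all). Of the 53 star probes detected on all 4 arrays, 22 read higher in both lobes before normalization and 19 after it. Over all miRNAs detected on both arrays, the unnormalized median difference with OBP-801 was -0.07 in ventral and 0.19 in lateral prostate on the log2 scale.

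**Figure D1:**
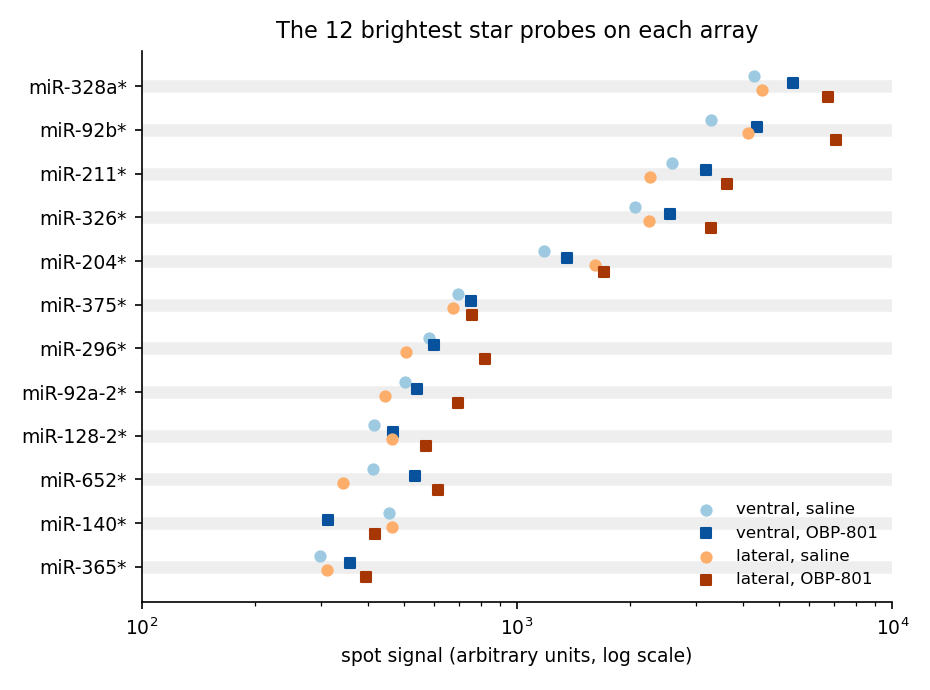
Spot signal (arbitrary units, log scale) of the 12 brightest star probes, 1 point per array, circles for saline and squares for OBP-801. The probes run from miR-328a* at 4268 to 6750 units down to miR-365* at 299 to 396, and miR-140* alone has both squares left of the circles of the same lobe.

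For each hairpin the star probe was then set against the probe of the other arm, as the log2 ratio of their normalized values. On a single array this ratio also holds the unequal brightness per molecule of 2 different probes, so that it does not measure which arm is more abundant. A constant inequality of this kind cancels in the difference of the ratio between arrays. The background correction and the scaling between arrays still act on that difference. Both arms were detected on all 4 arrays for 36 hairpins. The other arm was brighter on all 4 for 21 of them, the star was brighter on all 4 for 11, and the order differed between arrays for 4 (miR-210, miR-770, miR-872 and miR-194). For a further 6 hairpins the star was detected on all 4 arrays and the other arm on fewer (miR-211, miR-296, miR-874, miR-485, miR-466c and miR-501). The reverse held for 64 hairpins, of which 44 had a star probe detected on no array, and for 49 hairpins neither arm was detected anywhere.

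The lowest ratios belonged to hairpins with a very bright other arm. The star of miR-21, a miRNA often raised in tumours, read 133, 125, 143 and 139 beside 21101, 14402, 18777 and 18716 for its other arm, a mean log2 ratio of -7.55. The star of miR-200a, an epithelial miRNA that keeps E-cadherin expressed, read 173, 150, 195 and 222 beside 16779, 11685, 23839 and 24885, a mean log2 ratio of -6.80. Both star probes stayed under 2 times the limit on every array while their other arms were among the brightest probes. The stars of let-7d, miR-29a, let-7b and miR-23a had mean log2 ratios of -5.96, -5.82, -5.81 and -5.32.

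The highest ratios belonged to the bright star probes above. The mean log2 ratio was 5.07 for miR-92b*, 4.99 for miR-328a*, 4.42 for miR-326* and 2.98 for miR-204*. The other arm of miR-92b read 160, 165, 161 and 192, and that of miR-328a read 177, 200, 166 and 242, both within a factor of 2 of the limit. The stars of miR-375, miR-652, miR-365, miR-483, miR-140, miR-423 and miR-362 were brighter than their other arms by smaller margins, the least being 0.27 for miR-362*. For miR-211* the other arm read 136, 118, 140 and 122 and was detected on 3 arrays, and for miR-296* it read 124, 99.2, 115 and 119 and was detected on none.

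**Figure D2:**
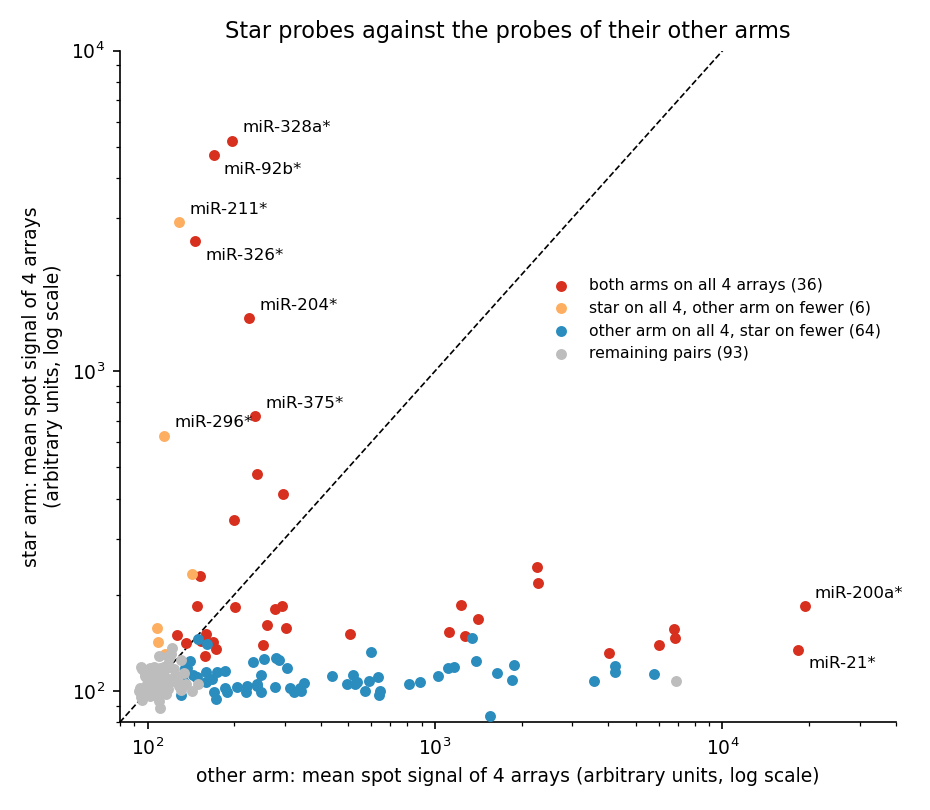
Mean spot signal over the 4 arrays of the star probe against that of the other-arm probe for 199 hairpins (both in arbitrary units on log scales), coloured by the arrays on which each arm was detected, with the line of equality dashed. Red and orange points rise along the left side, where the other arm is dim, and the blue points, 64 hairpins with the other arm on all 4 arrays and the star on fewer, lie along the bottom.

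Over the 36 hairpins the range of a single hairpin's log2 ratio over the 4 arrays had a median of 0.44 and ran from 0.15 to 1.29. The mean ratio ran from -7.55 to 5.07 between hairpins, a spread that also holds the unequal brightness of the probes and is no measure for the first. The widest range was that of miR-652*.

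**Figure D3:**
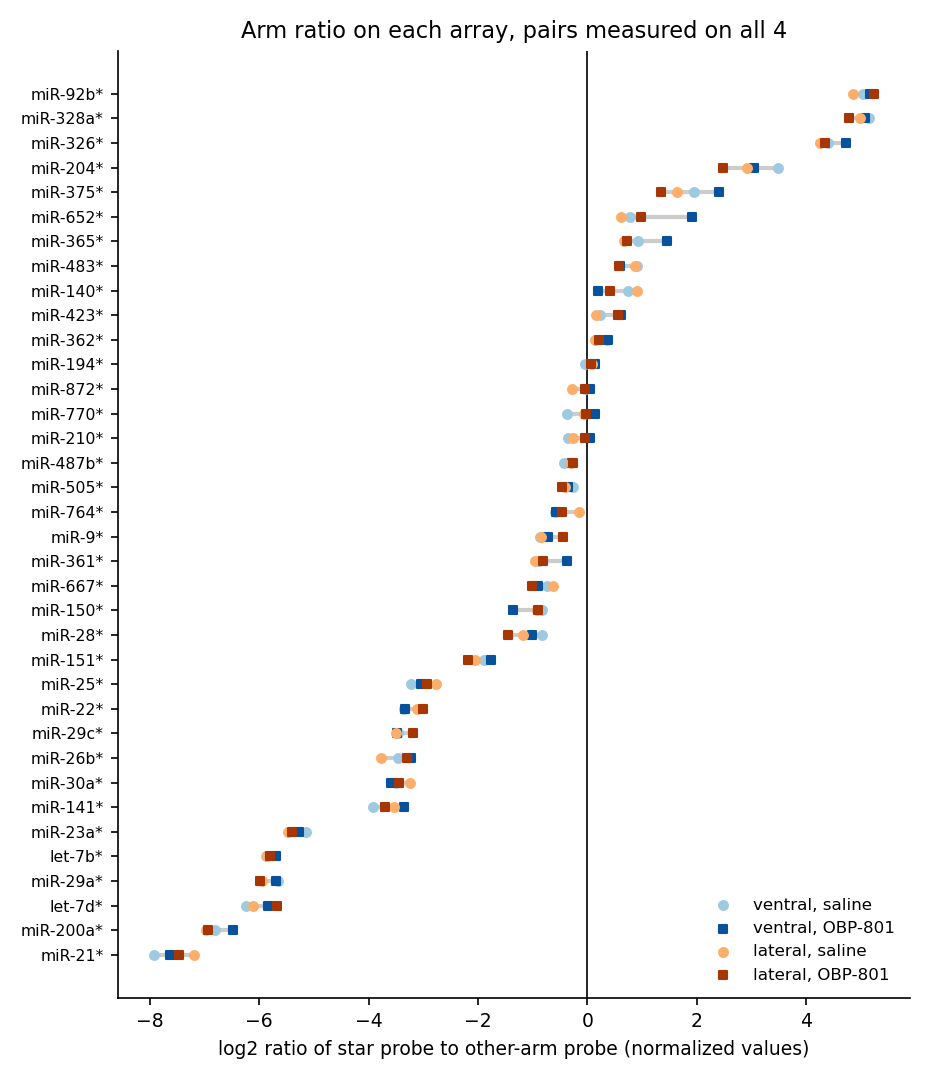
The log2 ratio of the star probe to the other-arm probe (normalized values) on each of the 4 arrays for the 36 hairpins with both arms detected on all of them, ordered by mean. Bars join the lowest and the highest array, and the means run from miR-92b* at 5.07 to miR-21* at -7.55. The widest bar is that of miR-652* at 1.29.

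The star arms with bright probes were rich in guanine. The measure was chosen after these sequences and signals had been seen. A run of 3 or more G was present in 54 of the 186 star arms with a sequence (29.0%), and in 36 of the 151 other arms (23.8%). It was present in 20 of the 44 star arms detected on all 4 arrays, in 15 of the 45 detected on 1 to 3 and in 19 of the 97 detected on none. Of the 10 with a sequence and a mean signal over 400, a limit also chosen after the values had been seen, 9 held such a run and miR-375* did not. The brightest star probe, miR-328a*, is not among them. Of the 34 star arms with a sequence that were detected on all 4 arrays at a mean signal under 400, 11 (32.4%) held such a run. Among the 32 other arms with a mean signal over 400 it was present in 5. The 9 are miR-92b*, miR-211*, miR-326*, miR-204*, miR-296*, miR-92a-2*, miR-128-2*, miR-652* and miR-140*.

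The runs lay at different places in the printed sequences. In miR-326* the first run of G covered positions 1 to 5, inside and before the seed, and in miR-211* it covered positions 16 to 20 at the 3′ end. In miR-652* it covered positions 13 to 17. The share of G was 50% in miR-92b*, miR-211*, miR-326* and miR-296* and 45.5% in miR-204*, against a median of 22.7% over all 186. Spearman's rho between the share of G and the mean log2 level was 0.24 over the 186 star arms and 0.47 over the 44 detected on all 4 arrays. For the share of G and C it was 0.50 and 0.56. These describe probes of 1 array design measured on the same 4 arrays, and base composition also sets how strongly a probe binds, which was not tested.

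**Figure D4:**
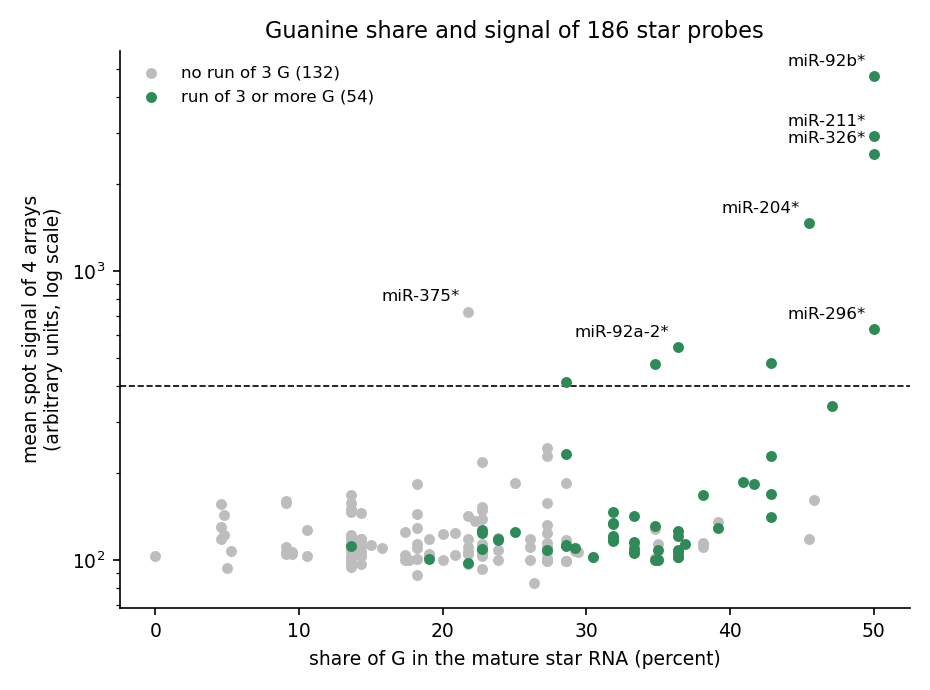
Mean spot signal over the 4 arrays (arbitrary units, log scale) against the share of G in the mature star arm (percent) for 186 star probes, with arms holding a run of 3 or more G in green and a dashed line at 400 units. Of the 10 points above the line, 9 are green, and miR-375* is the grey one.

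The first base also differed between the arms of a hairpin. In the 151 hairpins with both sequences the star began with U in 26 (17.2%) and the other arm in 80 (53.0%). The star began most often with A, in 57 of 151, and with C in 42. Of the 8 star arms printed above, miR-140* alone begins with U.

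Some star arms share a seed. Among the 186 there were 12 seeds held by more than 1 star arm, covering 26 of them. The stars of miR-128-1 and miR-128-2 share GGGGCCG, and their probes read 155, 165, 159 and 191 against 416, 468, 464 and 572. The stars of miR-24-1 and miR-24-2 share UGCCUAC and read 125, 118, 151 and 134 against 222, 213, 236 and 244. In each pair, chosen after the values had been seen, the second was brighter on every array, which compares 2 probes and not amounts of RNA. Of the let-7 type seed UAUACAA, let-7b* was detected on 4 arrays, let-7f-1* on both ventral ones and miR-98* on none.

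Stars of known groups of miRNAs were counted as a description, with no test. Over all 235 star probes, 130 (55.3%) were detected on no array and 53 (22.6%) on all 4. The list of proliferation clusters (miR-17-92 and its relatives) had 7 of 12 star probes detected on any array and 3 on all 4, namely miR-25*, miR-92a-2* and miR-92b*. The let-7 family, which acts as a brake on growth, had 5 of 9 and 2, and the miR-29 and miR-30 families had 6 of 8 and 3. The miR-23, miR-27 and miR-24 group had 3 of 6 and 3, and the miR-99, miR-100 and miR-125 group had 2 of 4 and 0. Of the epithelial list 4 of 7 were detected on any array and miR-141* and miR-200a* on all 4. Of the stromal list these numbers were 3 of 6, with miR-21* and miR-22*, of the leukocyte list 1 of 4, with miR-150*, and of the neuronal list 6 of 11, with miR-7a-1*, miR-7a-2* and miR-9*. Of the imprinted Dlk1-Dio3 cluster, active in embryo and brain, 13 of 36 were detected on any array and 4 on all (miR-485*, miR-487b*, miR-667* and miR-770*). None of the 10 star probes of the rodent X cluster expressed in testis was detected on any array.

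The study asked how OBP-801 changes miRNAs in this tissue. With 1 array per group a difference between 2 arrays has no replicate check and no p-value, and it is given as a log2 difference of normalized values among members detected on both. Of 59 members in ventral prostate, 1 was at least 1.5-fold higher under OBP-801 (2.69% of all 260 miRNAs detected on both arrays were) and 0 were at least 1.5-fold lower (3.85% of all). Of 66 in lateral prostate, 0 were at least 1.5-fold higher (2.21% of all 271) and 0 lower (2.58%). The median difference was 0.03 and 0.00 in the members and -0.02 and 0.00 over all miRNAs. The members' differences had a scaled median absolute deviation of 0.20 in both lobes, against 0.26 and 0.23 over all miRNAs. An offset of 50 units used in the background correction pulls the differences of dim probes towards 0, and most members are dim. Without the offset 6 members were at least 1.5-fold higher (7.31% of all miRNAs) and 4 lower (11.5%) in ventral prostate, and 2 higher (9.59%) and 5 lower (13.7%) in lateral prostate.

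The member past 1.5-fold was miR-652* (MIMAT0017321), whose gene lies in an intron of Tmem164 in mammals. Its signals were 413, 536, 343 and 617, higher in both OBP-801 arrays than in both saline arrays. The log2 difference was 0.62 in ventral prostate, a 1.54-fold difference, and 0.53 in lateral prostate. Taken relative to the median of all miRNAs, it lay between 0.48 and 0.77 in ventral and between 0.38 and 0.76 in lateral prostate over 7 other ways of background correction and scaling.

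Below it in ventral prostate stood miR-664-1* (0.43), miR-365* (0.37), miR-128-2* (0.34) and miR-770* (0.32), all log2 differences. In lateral prostate they were miR-92a-2* (0.52), miR-211* (0.49), miR-874* (0.49) and miR-296* (0.44). These lists have no member in common. On the lower side miR-140* (MIMAT0000574), whose gene lies in an intron of Wwp2 and whose hairpin is known for its part in cartilage, came last in both lobes. Its signals were 456, 314, 466 and 419, and its log2 difference was -0.52 in ventral and -0.38 in lateral prostate. It was followed by miR-29a* (-0.34) and miR-26b* (-0.23) in ventral prostate and by miR-24-1* (-0.36) and miR-141* (-0.31) in lateral prostate.

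A difference of 1.2-fold with the same sign in each lobe was found for 3 members. Of the 53 detected on all 4 arrays, miR-326* and miR-652* were at least 1.2-fold higher under OBP-801 in both (6.2% of all 242 miRNAs were) and miR-140* was at least 1.2-fold lower in both (7.02%). For miR-326* the log2 difference was 0.29 and 0.33. None of the 53 differed by 1.2-fold in opposite directions (2.48% of all). With the offset, no member of the lists of known miRNA groups detected on both arrays differed by 1.5-fold in either lobe or between lobes. Over all miRNAs 2.21% to 4.06% did in each direction. Under other ways of background correction and scaling some list members passed it. Relative to the median of all miRNAs, miR-24-1* reached -1.27 with OBP-801 in lateral prostate and 1.23 between lobes under saline.

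An additive limma fit used both lobes as the only repeats of the agent, with 1 residual degree of freedom, over the 242 miRNAs detected on all arrays. After Benjamini-Hochberg adjustment at 0.05 it called 0 of the 53 members and 0 of all 242 for the agent. At an unadjusted p under 0.05 it had 5 members, 4 of them higher, and 44 of all 242 (18.2%). The smallest adjusted p of a member in limma's fit was 0.122, for miR-652*, at a log2 difference of 0.58 (SE 0.099), higher in both lobes. For miR-140* limma gave -0.45 (SE 0.10, adjusted p = 0.149), lower in both lobes. The other 3 were miR-326* at 0.31, miR-92b* at 0.32 and miR-296* at 0.33, each with an adjusted p of 0.215 in limma's fit.

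The arm ratio answers a different question, namely whether the star differed between arrays more than its other arm. In ventral prostate 40 hairpins had both arms detected on both arrays, and the ratio was at least 1.5-fold higher under OBP-801 in 1 of them (3.7% of all 54 arm pairs were) and lower in 0 (3.7%). In lateral prostate it was higher in 1 of 43 (3.33% of all 60 pairs) and lower in 0 (3.33%). These counts also depended on the offset. Without it the ratio was at least 1.5-fold higher in 10 and lower in 3 in ventral prostate (13 and 5 of all pairs). In lateral prostate it was then higher in 6 and lower in 6 (12 and 8 of all pairs). With the offset, the median log2 difference of the ratio was 0.14 and 0.03.

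The ventral hairpin was again miR-652. Its log2 ratio was 0.77, 1.91, 0.62 and 0.98, so that the star stood further above the other arm in ventral OBP-801 than on the other 3 arrays. The difference of 1.14, or 2.21-fold, was made up of 0.62 from the star and -0.52 from the other arm, which read 225, 166, 258 and 313. In lateral prostate the ratio differed by 0.36 and the other arm was not lower. The lateral hairpin was miR-378, whose gene lies in an intron of the metabolic regulator Ppargc1b, with a difference of the ratio of 0.65. Its star differed by 0.02 and its other arm by -0.63. That star was dim, at 149 units in lateral OBP-801, and the offset pulls its part towards 0.

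On the normalized scale several differences of the ratio lay mainly in the other arm. The offset pulls the part of a dim arm towards 0, so how a difference divides between the arms depends on it. In ventral prostate the ratio of miR-141, an epithelial miRNA, was 0.58 higher, with -0.02 in the star and -0.59 in the other arm. In the same lobe it was 0.54 lower for miR-150, with -0.16 in the star and 0.38 in the other arm. In lateral prostate the ratio of let-7d was 0.44 higher, from -0.14 in the star and -0.58 in the other arm, but the ratio was not higher, at -0.01, under 3 other scalings. For miR-140 the difference lay in the star in both lobes, with -0.54 for the ratio in ventral prostate, -0.52 for the star and 0.02 for the other arm. In lateral prostate the 3 values were -0.51, -0.38 and 0.13.

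The hairpin of miR-204 had a ratio of 3.48, 3.04, 2.92 and 2.48, lower under OBP-801 in both lobes and lower in lateral than in ventral prostate under both agents. The difference with OBP-801 was -0.44 in each lobe. The other arm read 154, 202, 235 and 309, so that it was dimmest where the ratio was highest and brightest where it was lowest. Over the 7 other ways of background correction and scaling the difference stayed below 0 in both lobes, and the one nearest to 0 was -0.27 in ventral and -0.32 in lateral prostate.

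Of the 36 hairpins with both arms on all arrays, the ratio was at least 1.2-fold higher under OBP-801 in both lobes for let-7d, miR-423 and miR-652 (10.2% of all 49 pairs) and lower in both for miR-140, miR-204 and miR-483 (10.2%). It differed by 1.2-fold in opposite directions in the lobes for 2 of the 36 (4.08% of all), miR-21 and miR-375. The hairpin of miR-423 had ratios of 0.23, 0.61, 0.16 and 0.56, and that of miR-483, which lies in the Igf2 gene, had 0.91, 0.59, 0.86 and 0.58. In both, the saline arrays and the OBP-801 arrays did not overlap, which was so for 14 of the 36 hairpins and for 42.9% of all 49 pairs. For let-7d the lateral part depended on the scaling, as given above.

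**Figure D5:**
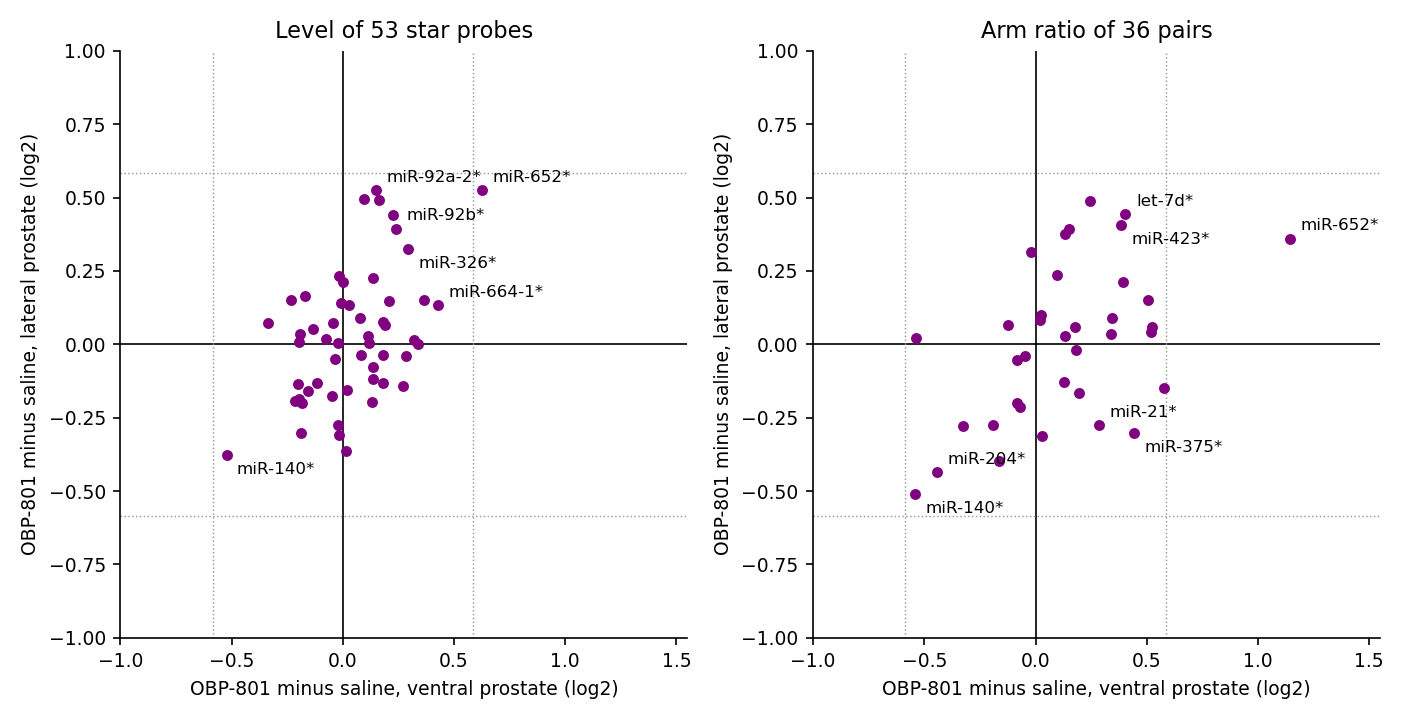
Log2 difference between OBP-801 and saline in ventral (x) and lateral prostate (y), on the left for the level of 53 star probes detected on all arrays and on the right for the arm ratio of 36 hairpins, with dotted lines at 1.5-fold. On the left miR-652* stands at 0.62 and 0.53 and miR-140* at -0.52 and -0.38. On the right miR-652* stands furthest out at 1.14 and 0.36, and miR-140* and miR-204* lie in the lower left corner.

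The additive limma fit of the ratio over 49 arm pairs called 0 of the 36 hairpins and 0 of all 49 for the agent after Benjamini-Hochberg adjustment. At an unadjusted p under 0.05 it had 8 of the 36, 5 of them higher, and 12 of all 49 (24.5%). The smallest adjusted p in limma's fit was 0.125, shared by miR-140 at -0.53 (SE 0.089), miR-204 at -0.44 (SE 0.089) and let-7d at 0.42 (SE 0.089), each with the same direction in both lobes.

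Between the lobes the count of star probes past 1.5-fold depended on the offset. Of 58 members under saline, 0 were at least 1.5-fold higher in lateral prostate (3.53% of all 255 miRNAs were) and 0 lower (2.35%). Of 64 under OBP-801, 0 were higher (4.06% of all 271) and 0 lower (2.58%). Without the offset 8 were higher (11.4% of all) and 5 lower (10.6%) under saline, and 4 higher (9.96%) and 2 lower (9.59%) under OBP-801. The median was -0.04 and -0.06. The second turned to 0.22 when arrays were scaled on the spike controls, where the median of all miRNAs was 0.29. Lateral OBP-801 had the highest median signal of the 4 arrays.

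The members furthest apart under saline were miR-664-1* (0.44), miR-30a* (0.38), miR-141* (0.38), miR-24-1* (0.36) and let-7d* (0.34) on the higher side in lateral prostate. On the lower side they were miR-211* (-0.49), miR-29a* (-0.48), miR-26b* (-0.45), miR-9* (-0.38) and miR-92a-2* (-0.37). Under OBP-801 the higher side held miR-29c* (0.37), miR-30a* (0.37), miR-200a* (0.34), miR-28* (0.25) and miR-7a-1* (0.19). The star of miR-30a read 215, 187, 293 and 285, so that both lateral arrays were above both ventral ones. It was higher by about the same amount under both agents, and its adjusted p in limma's fit was 0.142 at a log2 difference of 0.37 (SE 0.096).

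On the lower side under OBP-801 stood miR-375* (-0.41), miR-328a* (-0.38), miR-365* (-0.29), miR-23a* (-0.22) and miR-204* (-0.20). Relative to the median of all miRNAs, the direction for miR-328a* and miR-204* turned under 3 other scalings (median centring, spike scaling and none). For the lobe the limma fit called 0 of the 53 members and 0 of all 242 after adjustment, and at an unadjusted p under 0.05 it had 3 members and 43 of all 242 (17.8%).

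The arm ratio set the lobes further apart than the star levels did in a few hairpins. Under saline it was at least 1.5-fold higher in lateral prostate for 2 of 39 hairpins (5.66% of all 53 pairs) and lower for 0 (1.89%). Those 2 were miR-21 at 0.74 and miR-106b, whose gene lies in an intron of the replication gene Mcm7, at 0.72. Without the offset the ratio was higher for 6 and lower for 5 (7 and 7 of all pairs). For miR-21 and miR-106b the other arm gave most of the difference on the normalized scale, with -0.58 and -0.46. Their stars were dim, and the offset pulls the part of a dim star towards 0. Under the same 3 other scalings the differences of these 2 ratios were 0.27 and 0.17, so that the size depends on the scaling.

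Under OBP-801 the ratio was at least 1.5-fold higher in lateral prostate for 0 of 43 hairpins (1.67% of all 60 pairs) and lower for 3 (6.67%). Those 3 were miR-375 at -1.06, miR-652 at -0.93 and miR-365 at -0.73. Without the offset the ratio was higher for 2 and lower for 7 (5 and 7 of all pairs). The ratio of miR-375 was 1.95, 2.40, 1.64 and 1.34, highest in ventral OBP-801 and lowest in lateral OBP-801. Its star contributed -0.41 and its other arm, which read 211, 172, 253 and 307, contributed 0.65. The ratio differences of miR-375, miR-652 and miR-365 stayed below 0 under the 7 other ways of background correction and scaling, with -1.50 to -0.93 for miR-375.

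For the lobe term, limma called 0 of the 36 hairpins and 0 of all 49 pairs after adjustment. At an unadjusted p under 0.05 it had 6 of the 36, 1 of them higher in lateral prostate, and 10 of all 49 (20.4%). The lowest adjusted p in limma's fit was 0.220, for miR-204 at -0.56 (SE 0.089) and miR-28 at -0.39 (SE 0.092), each lower in lateral prostate under both agents.

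Star probes seen on 1 array of a pair were given only a bound, in which the level on the bright array was divided by the dim array's own level or by the lowest level detected there, whichever was higher. Bounds are ratios of background-corrected, normalized levels and so are not the ratios of the spot signals given beside them. The highest bound of a member in any comparison was 1.29-fold. Under OBP-801, 13 of the 23 members seen in lateral prostate alone had a bound above 1-fold. The same held for 16 of the 21 seen under OBP-801 alone in lateral prostate and 13 of the 16 under saline alone in ventral prostate. Under saline it held for 16 of the 17 seen in ventral prostate alone. In the other directions every bound was above 1-fold. In ventral prostate 11 members were detected under OBP-801 alone, led by miR-351* with spot signals of 138 against 121 and a bound of 1.28-fold on the normalized scale, and 16 under saline alone, led by miR-106b* with 140 against 107 and a bound of 1.24-fold. Over all 679 miRNA probes 30 and 39 were. In lateral prostate 21 were detected under OBP-801 alone, led by miR-18a*, from the miR-17-92 cluster, with 169 against 123 and a bound of 1.27-fold, and 8 under saline alone, led by miR-539* with 127 against 112. Over all miRNA probes these counts were 58 and 19. Between the lobes 16 were seen in lateral and 17 in ventral prostate alone under saline, and 23 and 6 under OBP-801. Over all miRNA probes they were 35 and 44 under saline and 58 and 19 under OBP-801.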

How the data were processed

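RNA of 4 prostate samples carried the dye Hy5 on 1-colour arrays, per the labels' protocols. The deposited scanner files give the median intensity of each spot at 635 nm, not background-corrected and not normalized, per the file headers. The authors' deposited value table, a straight line of the spot intensity on each array with a median of 25, was used as an alternative only.

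Normexp correction in limma 3.58.1 (R 4.3.3) ran over 3136 spots with an offset of 50. Quantile normalization of the 679 miRNA probes and log2 followed. Each miRNA had 1 spot, and the ventral saline spot of miR-26a, marked faulty, was left out. The fits used lmFit and eBayes with lobe and agent as terms. The level fit was run on simulated data with independent noise and changes for the agent alone. The only condition set there was a small bias of the log2 difference, so that run does not vouch for the p-values. Pairs for the ratio fit were star and named partner, or 5p and 3p. The 4 arrays differ in signal over background, with blank means of 102, 100, 104 and 109, and their number limits the precision.

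Members named were the 12 brightest, the extremes of each comparison (up to 5 in each direction), the 3 largest bounds, the brighter stars, list members on all arrays and the smallest p-values of each fit. Members and lists were chosen with earlier results of these data known. The arm (5p or 3p) of each star was assigned by hand from the usual miRBase names before its sequence was looked up. Tables were made with Python 3.11.15 and pandas 2.3.3. Alternatives were other background corrections, scalings, filters, detection limits and the deposited table.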

Additional observations from a re-analysis of the deposited data

Results flagged for a closer look

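The arm ratio of 2 hairpins differed by at least 1.2-fold between OBP-801 and saline in opposite directions in the lobes. For miR-21 the log2 difference of the ratio was 0.29 in ventral and -0.28 in lateral prostate. For miR-375 it was 0.44 in ventral and -0.30 in lateral prostate. With 1 array per group the difference between the lobes was not tested. Both signs were kept under 7 other ways of background correction and scaling.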

How the results depend on the processing

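With 1 array per group, 1 spot per miRNA and signals mostly near the blank spots, no difference between 2 arrays has an error of its own, and agent cannot be told from slide position. The limma fits compare the agents within each lobe, since lobe is a term. No paired analysis was possible by replicate number, because the labels give none. Of the 354 alternative values, 252 kept their size and 102 moved. Among 77 medians 73 kept their size, and the other 4, given below, changed sign. The stricter filter left under 3 hairpins, and so no value, in the arm-ratio fit and in all arm-ratio comparisons but the lateral one with OBP-801, where it took the count higher from 1 to 0. A limit of the blank mean plus 3 SD left 49 star probes detected in ventral saline. The counts below are of members at least 1.5-fold higher and lower, in the order ventral drug, lateral drug, lobes under saline and lobes under OBP-801. Unless a value shows it, the cause of a change was not tested.

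When the blank level was subtracted without an offset, the counts for levels were 6 and 4, 2 and 5, 8 and 5, and 4 and 2. For arm ratios they were 10 and 3, 6 and 6, 6 and 5, and 2 and 7. Over all miRNAs the level counts were 19 and 30 of 260 and 26 and 37 of 271 in the drug comparisons. Between lobes they were 29 and 27 of 255 and 27 and 26 of 271. Over all arm pairs the ratio counts were 13 and 5 of 54 and 12 and 8 of 60 in the drug comparisons. Between lobes they were 7 and 7 of 53 and 5 and 7 of 60. For the other settings, counts past 1.5-fold over all miRNAs and arm pairs are not given here. Without the offset limma called 1 member level for the agent (miR-652*) and 1 for the lobe (miR-29a*), against 15 and 21 over all 242 miRNAs. The deposited table gave 0 and 22, 9 and 1, 5 and 7, and 18 and 0 for levels, with medians of -0.44 in the ventral drug comparison and 0.49 between lobes under OBP-801. There the median of all miRNAs was -0.47 and 0.51. Its arm-ratio counts were 11 and 5, 7 and 2, 4 and 7, and 2 and 8. For the agent limma called 1 ratio (miR-423*), against 2 over all 49 pairs. With no filter the level counts were 2 and 1 in ventral and 1 and 0 in lateral prostate. The arm-ratio counts were 12 and 2, 10 and 5, 13 and 7, and 5 and 9. Of 198 member ratios, 4 were called for the agent and 9 for the lobe, against 8 and 10 over all 258 pairs.

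Median centring, no normalization between arrays and spike scaling gave 0 level differences past 1.5-fold in ventral prostate. In lateral prostate they gave 1, 7 and 6 higher under OBP-801. Arm-ratio counts were the same under the 3, with 1 lower in ventral prostate, 0 higher and 3 lower between lobes under saline, and 5 lower under OBP-801. With no normalization and with spike scaling, 4 levels were higher in lateral prostate under OBP-801, with medians of 0.21 and 0.22. Spike scaling also gave 3 higher under saline and limma calls for 2 members by agent (miR-652* and miR-92b*) and 7 by lobe. Over all 242 miRNAs it gave 18 limma calls by agent and 59 by lobe. With no background correction the level count in ventral prostate and the ratio count in lateral prostate were 0. Limma then called 1 ratio for the agent (miR-652*) and 2 for the lobe (miR-375* and miR-652*). Over all 49 pairs it called 3 for the agent and 3 for the lobe. With print block medians removed, the ventral level count was 0, 1 level was lower between lobes under saline, 1 ratio was lower in ventral prostate, and 1 was higher and 1 lower between lobes under saline. For the lobe limma called 3 ratios (miR-204*, miR-375* and miR-652*), against 5 over all 49 pairs. With the negative control spots as the limit, no count here moved by over 1.5 times.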
